A study of Mus musculus with 16 samples.

Results

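The choroid plexus epithelial genes examined here are Ttr, Kl, Aqp1, Clic6, Slc4a5, Folr1, Prlr, Otx2, Sostdc1 and Tmem72, 10 of the 21878 mRNAs with counts and FPKM values, chosen by symbol as known markers of that epithelium. RNA-seq was performed on cells labelled as microglia, from the brains of 8-week-old female C57BL/6 mice. Of these mice, 8 had experimental autoimmune encephalomyelitis (EAE) and 8 were treated with PBS, with 1 rRNA-depleted stranded total RNA library per mouse. EAE, a mouse model of multiple sclerosis, was induced with a MOG peptide of residues 35–55 in complete Freund's adjuvant. Pertussis toxin was given in repeated doses of 200 ng, and brains were taken at the peak of disease. In the treatment field of the labels the last MOG residue rises from 55 to 62 over the 8 EAE mice. Cells were enriched on Percoll and sorted as CD11b+/CD45int, a gate that also holds other myeloid cells and that does not select epithelium. Each library carries the name of its group and the number of its mouse in the labels (EAE 1, PBS 1 and so on).

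The choroid plexus is a vascular tissue in the brain ventricles, covered by a single layer of epithelial cells that secretes cerebrospinal fluid. Its epithelium moves water, ions and folate from blood to fluid, and it releases transthyretin, the product of Ttr, in such amounts that Ttr is often the most abundant mRNA of the tissue. The developmental factor Otx2 is needed for the choroid plexus to form. Microglia are not known as a source of most of these transcripts.

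The labelled cell type was compared with marker lists. Summed FPKM of 14 microglial markers was 208 to 340 in the EAE group and 197 to 322 in the PBS group. The mean FPKM per gene of the neuron, astrocyte and oligodendrocyte lists was above that of the microglial list in 16 of 16 libraries, and that of the erythrocyte list in 14. No marker of any list was at 0 in all libraries. In an earlier analysis of these data, EAE 6, 7 and 8 and PBS 5, 7 and 8 were more alike than the other libraries. The labels name no batch. Fold changes within these 6 libraries and within the other 10 are given for the epithelial genes that differed most between the sets. Total counts were 24587443 to 34184576 per library.

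All 10 genes were detected in all 16 libraries. Ttr, the carrier of thyroid hormone and retinol in cerebrospinal fluid, had the highest level per length, with a mean FPKM of 111 over all libraries. It was followed by Clic6 at 4.29, Kl at 2.61, Aqp1 at 2.20, Folr1 at 0.932, Prlr at 0.763, Otx2 at 0.695, Sostdc1 at 0.409, Slc4a5 at 0.337 and Tmem72 at 0.219. In each library Ttr was 16.2 to 44.6 times Clic6. Ttr was above Clic6 and Clic6 was above Kl in 16 of 16 libraries, whereas each later neighbour pair held its order in only 9 to 14 of the 16, so these levels overlapped.

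**Figure D1:**
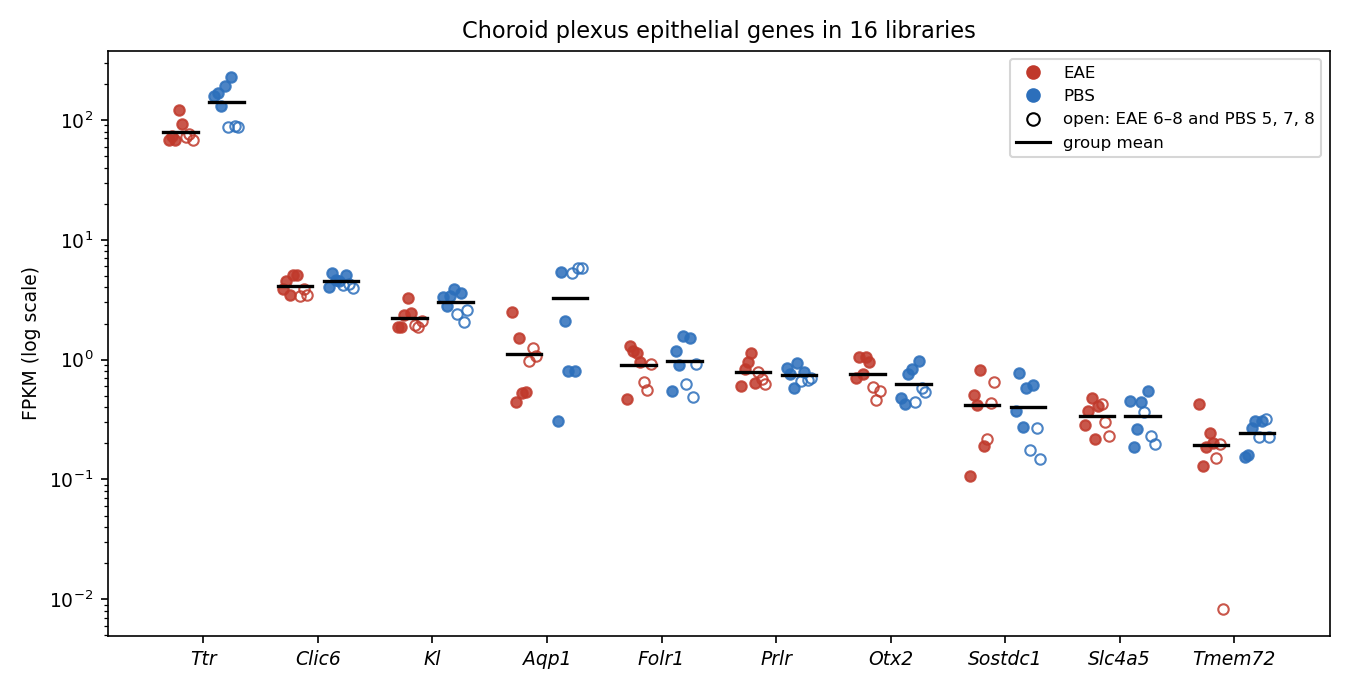
FPKM (log axis) of the 10 choroid plexus epithelial genes in 8 EAE (red) and 8 PBS (blue) libraries, 1 point per library, with black lines at group means. Open points are EAE 6, 7, 8 and PBS 5, 7, 8. Ttr lies at 67.6 to 120.3 in EAE and 86.7 to 227 in PBS libraries, and 4 PBS points of Aqp1 stand apart at 5.25 to 5.83.

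The comparison of EAE with PBS-treated mice asks whether these transcripts were recovered at different levels at the peak of disease. Ttr was lower in EAE mice, and it was the only 1 of the 10 genes with an adjusted p under 0.05. In EAE 1 to 8 its FPKM was 68.5, 72.8, 67.6, 120.3, 92.7, 72.7, 77.0 and 68.3. In PBS 1 to 8 it was 159, 167, 129.5, 191, 86.7, 227, 89.1 and 87.1. Thus 6 EAE libraries lay below all PBS libraries and 5 PBS libraries lay above all EAE libraries, and the overlap came from EAE 4 and EAE 5 on 1 side and PBS 5, 7 and 8 on the other. The means were 80.0 ± 18.2 (SD, n = 8) and 142 ± 52.8, from 2029 to 3816 counts in EAE and 3281 to 7714 in PBS libraries. The log2FC of Ttr was −0.88 (SE 0.18; quasi-likelihood test of edgeR, Benjamini-Hochberg adjusted p = 0.0163 over 17885 mRNAs). An exact two-sided permutation test of its FPKM gave p = 0.00622. In bulk libraries, fewer cells of a type and less RNA per cell cannot be told apart.

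Among all mRNAs tested, 1.76% were lower and 0.66% were higher in EAE mice at this threshold (2.42% in either direction), against 1 and 0 of the 10 genes. With the study's further threshold of |log2FC| over 1, 0 of the 10 were DEmRNAs in edgeR, against 0.117% of all mRNAs, or 0.0224% in the lower direction. In 0 of the 10 genes did all EAE libraries lie below all PBS libraries, which 0.101% of all mRNAs showed. At an unadjusted p under 0.05, 3 of the 10 (Ttr, Aqp1 and Kl) were lower, against 9.52% of all mRNAs lower and 17.4% in either direction. DESeq2 called 2 of the 10 lower at an adjusted p under 0.05, beside 602 of 17885 mRNAs. The log2FC was negative for 7 genes and positive for 3, with a median of −0.17, beside a median of 0.01 over all mRNAs.

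The difference in Ttr was present in both sets of libraries, with different sizes. Within EAE 6, 7 and 8 and PBS 5, 7 and 8, Ttr was 72.7 ± 4.37 FPKM (SD, n = 3) in EAE and 87.6 ± 1.28 in PBS, a log2FC of −0.30 (edgeR adjusted p = 2.43e-05). These 6 libraries were chosen because they were alike, which makes the spread small, and 13.1% of all mRNAs were called lower among them. Within the other 10 libraries it was 84.4 ± 22.5 (SD, n = 5) and 174.6 ± 36.5, a log2FC of −1.11 (edgeR adjusted p = 0.0221), where 0.0286% of all mRNAs were called lower. EAE and PBS libraries did not overlap in Ttr within either set. Within the 6 libraries this also held for Clic6, Aqp1 and Tmem72. The share of all mRNAs without overlap was not computed within the sets. The difference between these fold changes was not tested, since the sets were drawn from the data. Leaving out each library in turn gave a log2FC of −0.98 to −0.76 for Ttr, with an adjusted p under 0.05 in 16 of 16 edgeR fits.

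Kl encodes α-Klotho, a co-receptor for FGF23 whose shed form enters cerebrospinal fluid. Its FPKM was 1.88, 1.87, 2.37, 3.26, 2.47, 1.95, 1.86 and 2.08 in EAE 1 to 8, and 3.34, 2.80, 3.38, 3.88, 2.41, 3.57, 2.06 and 2.57 in PBS 1 to 8. EAE 4 was the highest EAE library, followed by EAE 5, and 4 EAE libraries lay below all PBS libraries. The means were 2.22 ± 0.484 (SD, n = 8) and 3.001 ± 0.635, with a log2FC of −0.49 (SE 0.13). This difference did not pass the test (edgeR adjusted p = 0.0571). Of 16 edgeR fits without 1 library, 3 were under 0.05 for Kl. These gave 0.0068 without EAE 4, 0.0407 without EAE 5 and 0.0383 without PBS 7, and the largest of the 16 values was 0.115. Without EAE 4, calls over all mRNAs also rose, from 315 lower and 118 higher to 815 and 502. With no library removed, DESeq2 gave 0.0127 for Kl. EdgeR gave 0.0223 with the replicate block and 0.0162 with the possible batch as a term. Limma-voom gave 0.0709, and edgeR with other scalings or filters gave 0.0551 to 0.0868.

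Aqp1, the water channel of the apical membrane, had the largest biological coefficient of variation of the 10 genes in edgeR (0.65). It was 2.49, 0.444, 1.52, 0.530, 0.539, 0.978, 1.25 and 1.07 FPKM in EAE 1 to 8, and 0.306, 5.41, 2.12, 0.807, 5.25, 0.806, 5.83 and 5.83 in PBS 1 to 8. PBS 2, 5, 7 and 8 stood apart at 5.25 or more, and PBS 1 was the lowest of all 16 libraries, 19.0-fold below the highest. No EAE library exceeded the PBS median of 3.69. The log2FC was −1.64 (SE 0.49), with a larger error than that of Ttr, and it did not pass the test (edgeR adjusted p = 0.0757). Without PBS 1, 4 or 6, the PBS libraries with the least Aqp1, the edgeR adjusted p was 0.0326, 0.0389 and 0.0428, respectively. Only these 3 of 16 fits without 1 library were under 0.05, and the highest adjusted p was 0.157. Over the fits that kept all 16 libraries, including DESeq2 and limma-voom, the adjusted p was 0.0613 to 0.285. Within EAE 6, 7 and 8 and PBS 5, 7 and 8, Aqp1 was 1.10 ± 0.139 and 5.64 ± 0.331 FPKM (SD, n = 3), a log2FC of −2.38 (edgeR adjusted p = 3.35e-12, with 13.1% of all mRNAs called lower in the same fit). Within the other 10 libraries the log2FC was −0.88 (edgeR adjusted p = 0.698).

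Kl lies at chr5:150952607-150993817 and Aqp1 at chr6:55336299-55348555 of GRCm38.p6, both on the plus strand and with no overlapping gene. The 250 bases before the start of Kl, whose level followed that of Ttr over the libraries as described below, and of Aqp1, whose coefficient of variation was the largest, are shown, from RefSeq on GRCm38.p6 at chr5:150952357-150952606 and chr6:55336049-55336298. The third sequence is a stretch of 30 bases on the minus strand at chr14:48665303-48665332, within the window of an Otx2 transcript. Capitals mark the GC box GGGCGG on either strand and, in Otx2, the site TAATCC on the opposite strand, the core bound by bicoid-type factors such as Otx2 itself.
Kl: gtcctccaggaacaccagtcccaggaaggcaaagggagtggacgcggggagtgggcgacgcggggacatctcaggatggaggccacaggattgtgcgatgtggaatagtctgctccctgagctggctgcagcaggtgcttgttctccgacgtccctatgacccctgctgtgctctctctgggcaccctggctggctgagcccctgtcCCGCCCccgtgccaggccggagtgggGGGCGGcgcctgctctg
Aqp1: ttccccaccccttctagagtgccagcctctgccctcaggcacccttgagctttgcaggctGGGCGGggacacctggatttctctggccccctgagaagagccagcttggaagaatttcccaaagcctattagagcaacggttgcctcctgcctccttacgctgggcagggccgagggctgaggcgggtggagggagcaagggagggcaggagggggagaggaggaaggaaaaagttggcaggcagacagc
Otx2: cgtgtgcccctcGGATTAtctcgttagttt

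The windows scanned run from 250 bases before to 50 after each start, and 6 of the 10 genes were found in the promoter table, with 11 windows. TAATCC, searched on both strands, was in 1 of these 11 windows and in 7.06% of 32851 mouse promoters. The GC box was in 3 of the 11, those of Kl, Aqp1 and Slc4a5, and in 35.7% of all promoters. The TATA box TATAAA was in 2 of the 11, of Otx2 and Slc4a5, and in 13.6% of all. In the sequence of Kl the GC boxes start 43 and 17 bases before the start of transcription, and in that of Aqp1 190 bases before it. The Kl and Aqp1 stretches shown have a GC content of 66.8% and 62.0%. A match to these letters is a description and not a bound site.

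The remaining transport genes did not pass the test. Clic6, of the chloride intracellular channel family, was 3.42 to 5.12 FPKM in EAE libraries (median 3.87) and 3.93 to 5.24 in PBS libraries (median 4.42). Its log2FC was −0.18 (95% interval −0.37 to 0.01, edgeR adjusted p = 0.336), and 5 EAE libraries lay below all PBS libraries. Folr1, the folate receptor that carries folate into the fluid, was 0.465 to 1.30 FPKM in EAE libraries (median 0.940) and 0.486 to 1.58 in PBS libraries (median 0.912), and the groups overlapped almost entirely. Its log2FC was −0.16 (95% interval −0.70 to 0.37, edgeR adjusted p = 0.813). Slc4a5, a sodium bicarbonate cotransporter, was 0.218 to 0.474 FPKM in EAE libraries (median 0.336) and 0.186 to 0.546 in PBS libraries (median 0.314), with a log2FC of −0.03 (95% interval −0.49 to 0.43).

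Prlr, the prolactin receptor, was 0.597 to 1.13 FPKM in EAE libraries (median 0.740) and 0.584 to 0.934 in PBS libraries (median 0.726). Its log2FC was 0.02 (95% interval −0.23 to 0.26), so that a difference as large as that of Ttr lay outside the interval. Otx2 had higher values in EAE libraries, 0.461 to 1.05 FPKM (median 0.730), than in PBS libraries, 0.425 to 0.965 (median 0.556), but the log2FC of 0.24 did not pass the test (95% interval −0.16 to 0.63, edgeR adjusted p = 0.589). Sostdc1, a secreted antagonist of BMP signalling, rested on 5 to 45 counts per library, and its log2FC of 0.00 had an interval of −0.80 to 0.80. Within EAE 6, 7 and 8 and PBS 5, 7 and 8 it was 1.10 (edgeR adjusted p = 0.1645). Within the other libraries it was −0.44 (edgeR adjusted p = 0.829). Tmem72, a membrane protein, had 1 to 54 counts in EAE and 19 to 52 in PBS libraries, with its lowest FPKM of 0.00828 in EAE 8 and its highest of 0.428 in EAE 1. Its log2FC was −0.39 (95% interval −1.10 to 0.31). Within the same sets of libraries the log2FC of Tmem72 was −1.11 (edgeR adjusted p = 0.131) and −0.08 (edgeR adjusted p = 0.973). For Folr1, Slc4a5, Sostdc1 and Tmem72 the interval included a difference of the size seen in Kl.

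**Figure D2:**
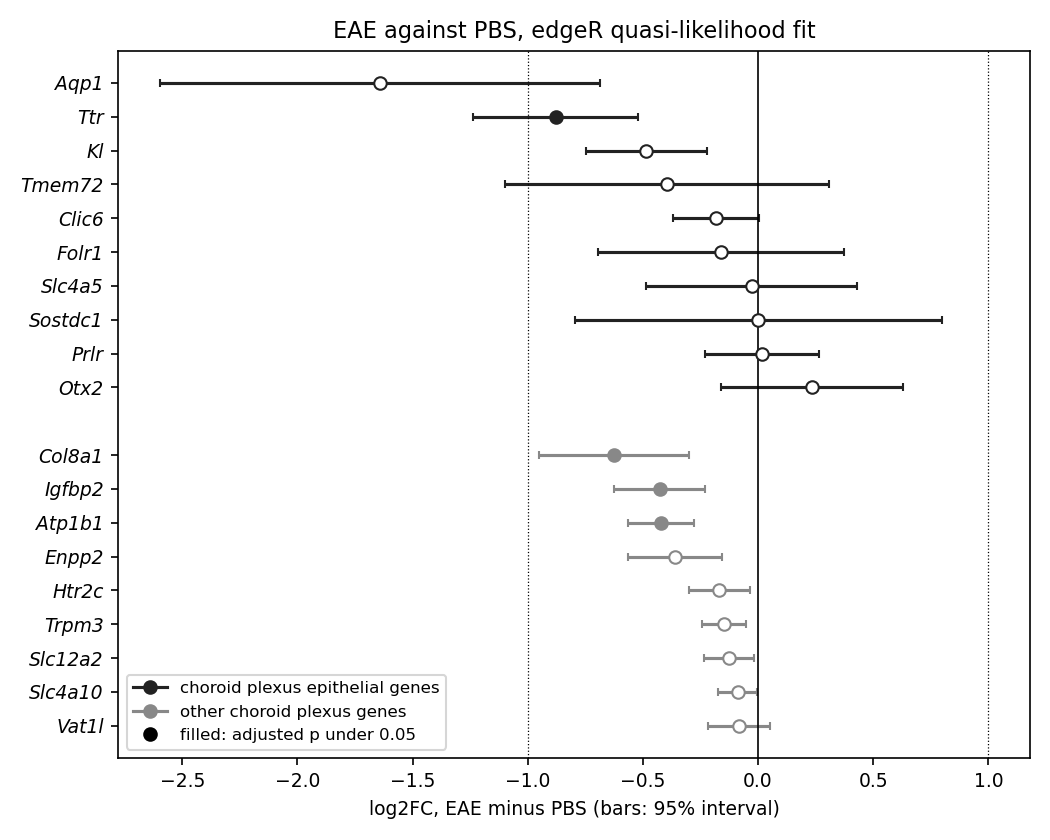
Log2FC of EAE minus PBS on the x axis, with bars of the 95% interval from edgeR, for the 10 epithelial genes (black) and 9 further choroid plexus genes (grey), and filled points at an adjusted p under 0.05. Dotted lines stand at a log2FC of −1 and 1. Ttr, Atp1b1, Igfbp2 and Col8a1 are filled, and Aqp1 lies lowest with the widest bar.

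A list of 48 further choroid plexus genes was examined in the same fit, many of which other brain cells also make. Of these, 3 were lower and 0 were higher in EAE mice at an adjusted p under 0.05 in edgeR (11 and 3 at an unadjusted p under 0.05), and DESeq2 called 6 and 2. The log2FC was negative for 31 and positive for 17, with a median of −0.09. Over all mRNAs tested, edgeR called 1.76% lower and 0.66% higher, and the median log2FC was 0.01. At an unadjusted p under 0.05 in edgeR, 9.52% were lower and 17.4% differed in either direction. DESeq2 called 602 of 17885 lower and 297 higher. By function, 1 of 17 transport genes, 2 of 12 genes for secreted proteins, 0 of 8 genes for epithelial structure and 0 of 11 others were called.

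Atp1b1, the β subunit of the Na+/K+-ATPase, was 275 ± 37.9 FPKM (SD, n = 8) in EAE and 355 ± 23.6 in PBS libraries, with a log2FC of −0.42 (SE 0.07, edgeR adjusted p = 0.00624), and it was under 0.05 in 16 of 16 fits without 1 library. Igfbp2, a secreted binding protein of insulin-like growth factors, was 10.4 ± 1.84 and 13.5 ± 1.57 FPKM, with a log2FC of −0.43 (SE 0.10, edgeR adjusted p = 0.0282). It lost the call without EAE 1, 2, 6 or 8 or PBS 2, 3, 5 or 7, with an adjusted p of up to 0.0720. Col8a1, a chain of type VIII collagen, was 0.549 ± 0.156 and 0.817 ± 0.173 FPKM, with a log2FC of −0.63 (SE 0.17, edgeR adjusted p = 0.0489), and it kept the call only without EAE 4 or PBS 8 among 16 such fits, in which its adjusted p reached 0.116.

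The most abundant genes of that list beside Atp1b1 and Igfbp2 did not pass the test. Enpp2, which encodes the secreted enzyme autotaxin, was 42.3 ± 6.11 FPKM in EAE and 52.4 ± 10.1 in PBS libraries, with a log2FC of −0.36 (SE 0.10, edgeR adjusted p = 0.0668). The ion transporters Slc4a10 and Slc12a2 had a log2FC of −0.09 and −0.13, and the cation channel Trpm3 had −0.15. The serotonin receptor Htr2c had −0.17 and Vat1l had −0.08, and the adjusted p of these 5 was 0.107 to 0.571 in edgeR.

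Libraries with much Ttr also had much Kl and Clic6. Covariation was measured as the correlation of log2(CPM + 1) over the 16 libraries, for Ttr with the other 9 genes. For Kl, Pearson's r was 0.889 (permutation p = 1e-05, the smallest that 100000 permutations can give, adjusted over 9 relations 9e-05), and Spearman's rho was 0.818 (permutation p = 0.00015, adjusted 0.00126). For Clic6, r was 0.683 (permutation p = 0.00412, adjusted 0.0185) and rho was 0.803 (permutation p = 0.00028, adjusted 0.00126). Without PBS 6 and PBS 4, the libraries farthest from the median of Ttr, r was 0.838 for Kl and 0.658 for Clic6, with adjusted permutation p of 0.00171 and 0.0499.

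The other genes were less clearly related to Ttr. Folr1 and Sostdc1 had r of 0.480 and 0.461, both with an adjusted permutation p of 0.163. Prlr, Tmem72, Slc4a5 and Otx2 had r of 0.310, 0.290, 0.20 and 0.145, with adjusted permutation p of 0.427 to 0.592, and rho of 0.059 to 0.374. The r of Folr1 was 0.117 without PBS 6 and PBS 4. Aqp1 had r = −0.152 (adjusted permutation p = 0.592), but since 4 PBS libraries stood apart, a relation over all 16 libraries cannot be tested. The PBS library with the least Aqp1 had 159 FPKM of Ttr. Of the 4 PBS libraries highest in Aqp1, PBS 5, 7 and 8 had 86.7 to 89.1 FPKM of Ttr, but PBS 2 had 167.

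**Figure D3:**
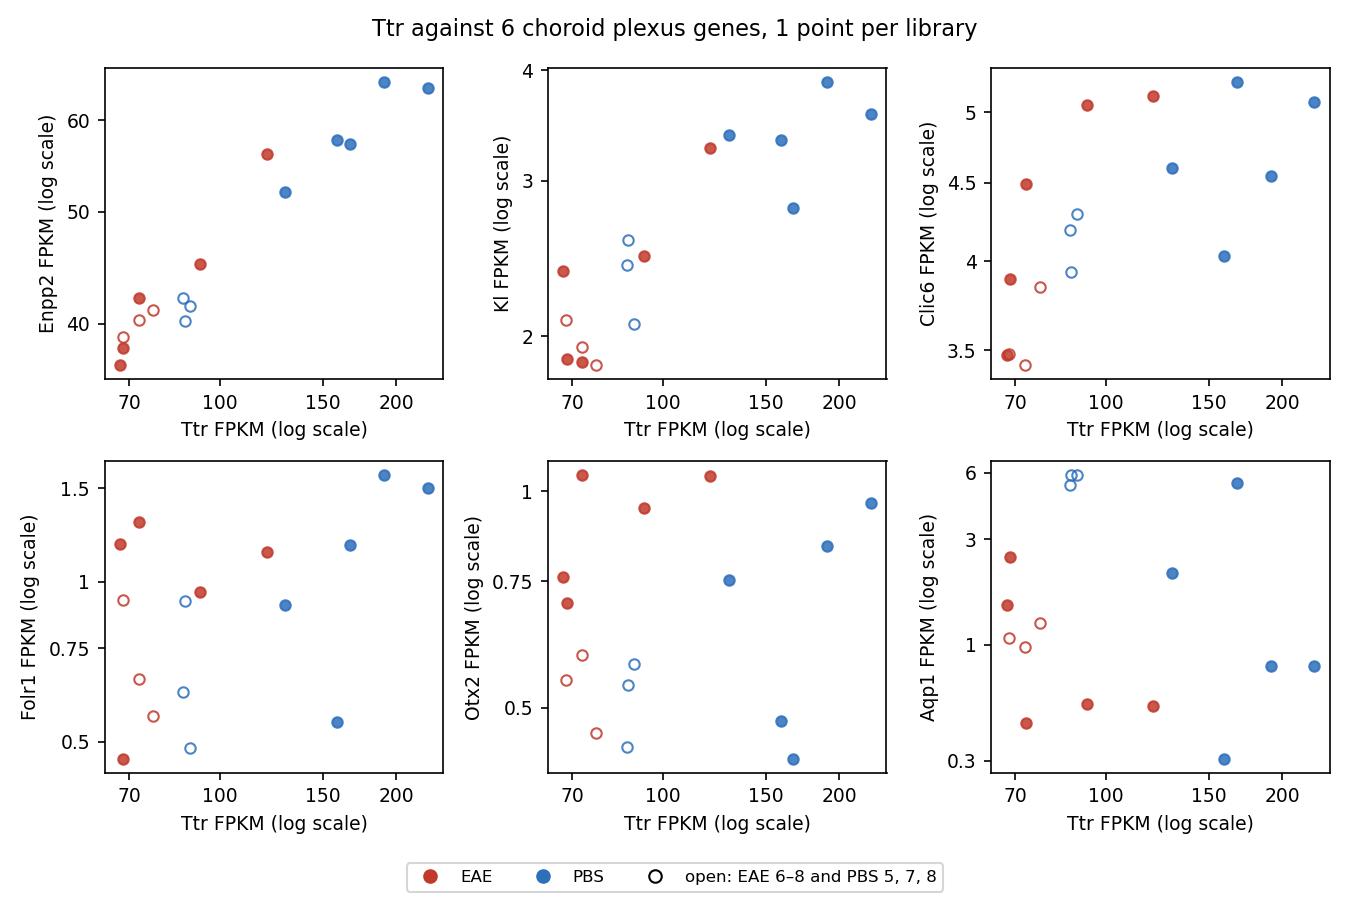
FPKM of 6 choroid plexus genes (y, log axes) against FPKM of Ttr (x, log axis), 1 point per library, EAE in red and PBS in blue, with EAE 6, 7, 8 and PBS 5, 7, 8 as open points. Enpp2 rises along with Ttr through both groups. Kl rises with Ttr over the 16 libraries, but among EAE libraries it is highest in EAE 4 and EAE 5, with a rho of 0.190. Clic6 rises less tightly over the 16 libraries, whereas Folr1 and Otx2 scatter and Aqp1 is highest in 4 PBS libraries.

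Because Ttr differs between EAE and PBS, relations were also computed within groups. With group means subtracted, r with Ttr was 0.817 for Kl, 0.646 for Clic6, 0.659 for Sostdc1, 0.587 for Folr1, 0.525 for Otx2 and 0.518 for Prlr, with adjusted permutation p of 0.00099 to 0.0492. The seventh gene to pass was Aqp1, in the opposite direction, with r = −0.716 (adjusted permutation p = 0.0094) and rho = −0.703 (adjusted 0.0154), and the 4 PBS libraries stand apart in this measure too. With group means subtracted, rho did not pass for Folr1, Otx2 and Prlr (adjusted permutation p = 0.0995, 0.190 and 0.164). These permutations moved values between the groups, whose spread differed (SD of Ttr FPKM 18.2 in EAE, 52.8 in PBS). Their p thus does not measure a relation inside each group. By Pearson's r, 0 of the 9 relations passed within EAE and 0 within PBS. By rho, Sostdc1 passed within PBS (0.905, adjusted exact permutation p = 0.0411). Within the 8 EAE libraries, Kl had r = 0.833 (exact permutation p = 0.0285, adjusted 0.128) but rho = 0.190. Within the 8 PBS libraries, Kl had r = 0.845 (exact permutation p = 0.0137, adjusted 0.0618). Within EAE 6, 7 and 8 and PBS 5, 7 and 8, r was 0.575 for Kl (exact permutation p = 0.251) and 0.923 for Clic6 (exact permutation p = 0.00833, adjusted 0.0375). In the same 6 libraries Tmem72 had r = 0.884 (adjusted exact permutation p = 0.025) and Aqp1 had r = 0.950 (adjusted exact permutation p = 0.0375). Here all EAE libraries lay below all PBS libraries for Ttr, Clic6, Tmem72 and Aqp1. The r of Clic6, Tmem72 and Aqp1 within the 6 libraries thus also hold the difference between the groups. Within the other 10 libraries, r was 0.880 for Kl (permutation p = 0.00153, adjusted 0.0138) and 0.556 for Clic6 (adjusted permutation p = 0.344), and for Tmem72 and Aqp1 it was 0.092 and −0.026. None of these 4 relations passed the test in both sets of libraries. For Sostdc1, Folr1, Otx2 and Prlr, r was −0.735, −0.371, −0.226 and −0.063 within the 6 libraries (adjusted exact permutation p of 0.231 to 0.924). Within the other 10 it was 0.531, 0.366, −0.228 and 0.169 (adjusted permutation p of 0.344 to 0.901).

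The 45 pairs among the 10 genes had a median r of 0.26, from −0.58 to 0.89, and 17.8% were above 0.5. Of these, 13 were negative, 8 of them pairs of Aqp1. The 36 pairs without Aqp1 had a median r of 0.32, and 22.2% were above 0.5. Over all pairs of 14595 mRNAs with a mean of at least 32 counts, the median was 0.02 and 9.24% were above 0.5. After Ttr with Kl and with Clic6, the highest were Folr1 with Sostdc1 at 0.63, Folr1 with Otx2 at 0.60 and Sostdc1 with Prlr at 0.59. These are descriptions, since the pairs share 16 libraries, and Sostdc1 and Tmem72 rest on few counts.

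**Figure D4:**
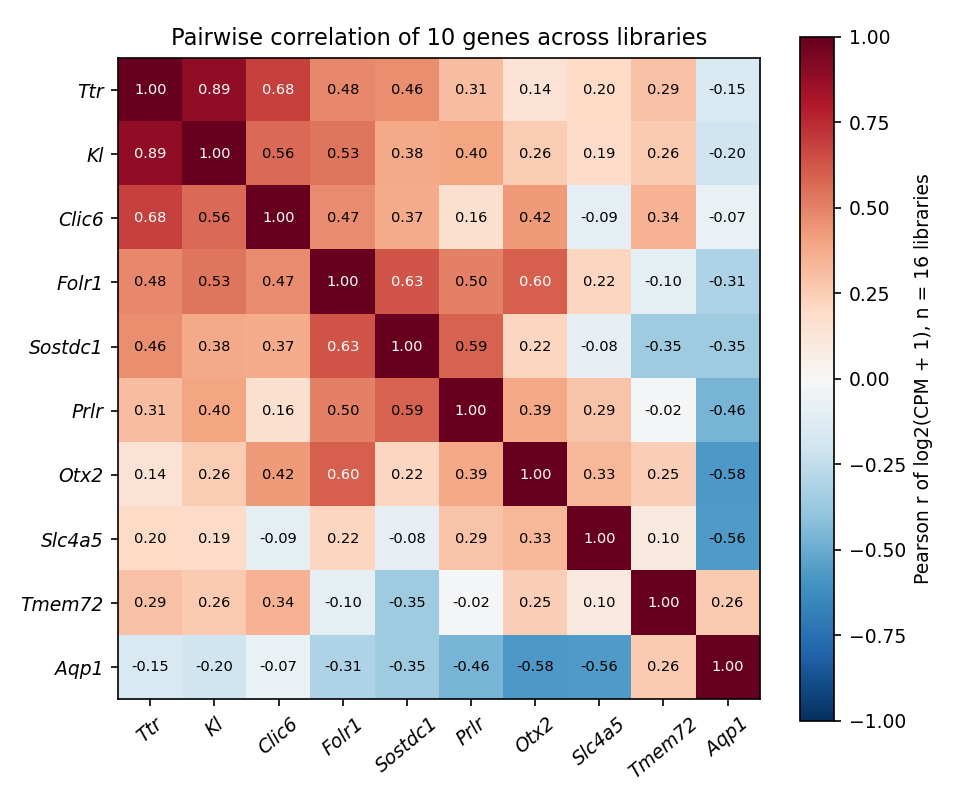
Pearson r of log2(CPM + 1) over 16 libraries for each pair of the 10 choroid plexus epithelial genes, from blue (−1) to red (1). The block of Ttr, Kl and Clic6 holds values of 0.56 to 0.89, and Aqp1 is negative with 8 of 9 genes, lowest with Otx2 at −0.58.

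Of 14594 mRNAs ranked by their r with Ttr, Enpp2 came first at 0.972, or 0.977 with group means subtracted. Its FPKM was 38.1, 42.1, 36.9, 56.1, 45.04, 40.3, 41.1 and 39.0 in EAE 1 to 8, and 57.7, 57.2, 52.0, 64.8, 42.1, 64.0, 41.4 and 40.3 in PBS 1 to 8. As for Ttr, EAE 4 was the highest EAE library and PBS 5, 7 and 8 were the lowest PBS libraries. Enpp2 varied over a narrower range than Ttr, and Ttr per Enpp2 was 1.87 in the mean of EAE and 2.63 in that of PBS libraries. Oligodendrocytes and endothelial cells also make Enpp2.

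The next 9 were Clstn3 (0.959), Pcsk1n (0.951), Gabra2 (0.920), Mageh1 (0.917), Olfm1 (0.915), Acsl6 (0.904), Aplp1 (0.902), Mmp17 (0.899) and Kirrel2 (0.894). Several of these are known from neurons, such as Gabra2, a subunit of the GABA-A receptor, and Clstn3, a synaptic adhesion protein. Kl ranked at place 14, and the choroid plexus genes F5, coagulation factor V, and Col8a1 ranked at places 16 and 30, with r of 0.881 and 0.856. Trpm3 ranked at 219 (r = 0.750) and Clic6 at 414. Of the 41 further choroid plexus genes with enough counts, 4 were in the top 5%, 26 had a positive r, and the median r was 0.21. As the genes were ranked by r, no test is given.

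Markers of other cell types also varied with Ttr. Over 9 lists, Pearson's r of log2(CPM + 1) of Ttr with log2(summed FPKM + 1) of the list passed at an adjusted permutation p under 0.05 for 0 lists, and it was 0.610 for oligodendrocytes, −0.628 for pineal and photoreceptor genes, 0.558 for astrocytes and −0.539 for endothelium (adjusted permutation p = 0.0566, 0.0566, 0.0708 and 0.0708). Spearman's rho passed for 5 lists, astrocytes (0.729), oligodendrocytes (0.753), erythrocytes (0.753), neurons (0.582) and pineal and photoreceptor genes (−0.568), with adjusted permutation p of 0.00588 to 0.0438. For microglia r was 0.00 and rho was 0.065, and for the ependymal list r was 0.057. With group means subtracted, 0 lists passed by either measure. For oligodendrocytes r was 0.931 within EAE 6, 7 and 8 and PBS 5, 7 and 8 (adjusted exact permutation p = 0.134) and 0.449 within the other 10 libraries (adjusted permutation p = 0.384).

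Between the groups, summed FPKM of the 8 astrocyte markers was 1166 to 1782 (median 1282) in EAE and 1357 to 1610 (median 1423) in PBS libraries, and that of the 8 oligodendrocyte markers was 912 to 1283 (median 966) and 1002 to 1228 (median 1070). That of the 10 neuron markers was 970 to 1182 (median 1121) in EAE and 1154 to 1270 (median 1203) in PBS libraries, and Syt1 and Gad1 among them were lower at an adjusted p under 0.05. The astrocyte marker Gfap and the microglial marker Trem2 were higher. EAE 4, which had the most Ttr, Kl, Clic6, Prlr and Sostdc1 of the EAE libraries, also had the highest sums of the ependymal list, 34.8, and of the fibroblast list, 30.5. EAE 5 was close in the ependymal list at 33.2, whereas the other 14 libraries had at most 22.4, and the other 15 had at most 19.7 for the fibroblast list. The part of these other cells in the level of Ttr was not tested.

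Ttr and Aqp1 also varied more between libraries of a group than mRNAs of like abundance. The biological coefficient of variation in edgeR was 0.25 for Ttr, where mRNAs of like abundance have 0.091, and 0.65 for Aqp1, where they have 0.19. For Clic6 it was 0.13 beside 0.14.

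Counting could mix some of these genes with neighbours, as the strand setting of the counting is not given in the sources used here. In GRCm38.p6, Folr1 (chr7:101858331-101870788) overlaps Anapc15 on the opposite strand. Otx2 (chr14:48656781-48667644) overlaps the lincRNA Otx2os1 on the opposite strand and Gm49154 on its own strand. Prlr (chr15:10177238-10349190) shares its strand with Gm21973, and Clic6 (chr16:92498147-92541241) with 2410124H12Rik. Slc4a5 (chr6:83207580-83304945), Tmem72 (chr6:116691539-116716982), Sostdc1 (chr12:36314169-36318452) and Ttr, on chromosome 18, overlap no annotated gene.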

How the data were processed

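RNA of cells labelled as microglia from 16 brains, 8 EAE and 8 PBS, was sequenced by the authors. Per the labels and methods, reads were aligned to GRCm38 with HISAT2 2.1.0 and counted with HTSeq 0.11.2, and DESeq2 1.22.2 and bcl2fastq are also named. The authors deposited raw counts and FPKM values of 21878 mRNAs. The deposited FPKM equals the count over library total and gene length (relative spread up to 1.152e-09 over 7749 mRNAs with over 500 counts in every library), so low levels share the counting error of the counts.

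Here the raw counts of 17885 mRNAs with a total of at least 16 were tested with edgeR 4.0.16 (R 4.3.3, TMM, quasi-likelihood, Benjamini-Hochberg adjustment, no covariate), the samples grouped by their labels. A DEmRNA had an adjusted p under 0.05 and |log2FC| over 1, the study's thresholds. The 95% intervals are 1.96 SE to either side. Correlations used CPM with a pseudocount of 1 and 100000 permutations, or all pairings at 8 or fewer libraries. DESeq2 1.42.0 and limma 3.58.1, other scalings, filters and subsets were alternatives. The number of per-sample columns left unused was 0.

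The genes, lists and tests were chosen with earlier results of these data known. The named genes were all 10 epithelial genes; of the other choroid plexus genes, the 8 with the highest mean FPKM and those with an adjusted p under 0.05; and the 10 mRNAs with the highest r with Ttr or with the mean of the 10 genes among mRNAs with a mean of at least 32 counts. Of these, 1 mRNA is not reported here. Sequences are from RefSeq and positions from the GRCm38.p6 annotation.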

Additional observations from a re-analysis of the deposited data

Results flagged for a closer look

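The FPKM of Kl in EAE 4 was 3.26, and its distance to the next EAE library, relative to the range of the group, was above the limit for an outlier among 8 values. This was 1 of 20 groups of 8 libraries examined (10 genes in EAE and in PBS), and chance alone flags about 1 in 20. Ttr in the same library, at 120.3 FPKM, was just under that limit.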

How the results depend on the processing

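Ttr kept its direction and an adjusted p under 0.05 under every alternative, and over those that kept all 16 libraries its log2FC was −0.88 to −0.81. Of the 10 epithelial genes, 1 was lower, against 2 with DESeq2, with the replicate block, with the possible batch as a term and within EAE 6, 7, 8 and PBS 5, 7, 8, and 1 to 2 when each library was left out. Of all mRNAs, 315 were lower, against 602, 367, 526 and 2251 in the same order, and 104 to 815 when each library was left out. Replicate numbers did not pair the libraries (same-number r from −0.229 to 0.572, 3 of 8 best with their own), and Kl had an adjusted p of 0.0223 with the block. Of the 48 other genes, 3 were lower, against 6 with DESeq2 and the batch term, 1 with total counts only, 10 within the 6 libraries, 0 within the other 10, and 1 to 8 without 1 library. For these, 0 were higher, against 2 with DESeq2, 1 within the 6 libraries and 0 to 1 without 1 library. Of all mRNAs, 13.1% were called lower within the 6 libraries and 0.0286% within the other 10. The cause of these moves was not tested.

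Relations of Ttr with the 9 genes past the threshold numbered 2, against 7 with group means subtracted, 0 within EAE, 0 within PBS, 3 within the 6 libraries and 1 within the other 10 (both sets were added after seeing the data). Marker lists numbered 0, against 2 with TMM-normalised CPM and 4 without the 2 farthest libraries.

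Log2FC values near 0 changed sign. Folr1 had 0.0514 within the 6 libraries. Slc4a5 had 0.0475 with limma-voom, 0.0206 with total counts only, 0.0132 with the block, 0.23 within the 6 libraries, and −0.11 to 0.10 without 1 library. Sostdc1 had −0.00101 with DESeq2, −0.0267 with limma-voom, −0.00182 with RLE size factors, −0.00675 with the block, −0.44 within the other 10 and −0.20 to 0.23 without 1 library. Prlr had −0.00176 with limma-voom and −0.0736 to 0.0720 without 1 library.

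Over all mRNAs, 315 were lower and 118 higher, against 602 and 297 with DESeq2, 526 and 242 with the batch term, 103 and 226 with total counts only (which moved the median log2FC to 0.06), 2251 and 1896 within the 6 libraries, 5 and 8 within the other 10, and 815 and 502 without EAE 4. Sostdc1 (5 to 45) and Tmem72 (1 to 54) rest on few counts per library.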

Other observations

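Among the mRNAs most like the mean of the 10 epithelial genes over the 16 libraries were Gabbr1 (r = 0.948), B3galt5 (0.936), Clcn3 (0.906), Tspan7 (0.902), Neto2 (0.893), Fam134c (0.879), Ndufa1 (0.877), Scg3 (0.877) and Aplp1 (0.875). Of these, Gabbr1 is a subunit of the GABA-B receptor and is not a marker of choroid plexus epithelium. Of the 41 further choroid plexus genes with enough counts, 11 were in the top 5% of this ranking, and their median r was 0.17.

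A ranking for Aqp1 was added after its values were seen, with the 4 PBS libraries that stood apart included. The highest were Ola1 (r = 0.930), Cand1 (0.929), Trh (0.928), Cacng7 (0.926) and Tbc1d9 (0.920). Trh, which encodes the precursor of thyrotropin-releasing hormone, was 7.97, 7.87, 7.80 and 6.98 FPKM in PBS 2, 5, 7 and 8, the libraries with the most Aqp1, and at most 5.03 FPKM in the other 12. Its log2FC between EAE and PBS was −0.73 (SE 0.20, edgeR adjusted p = 0.0594), which did not pass the test. Of the 41 further choroid plexus genes, 3 were in the top 5% by r with Aqp1, and the median was 0.01.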
